A study of Mus musculus with 2 samples.

Results

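Hoxc9-positive brown precursor cells are cells of a culture grown from brown adipose tissue that carried messenger RNA of Hoxc9, a positional gene used as a marker of white preadipocytes. They were selected on measured values: a cell of the brown library was a member when it had more than 3900 and fewer than 7700 detected genes, 6000 to 60000 UMIs (unique molecular identifiers, 1 per captured transcript), 1.7 to 5% mitochondrial UMIs, 0 UMIs of Sox10, Ptprc and Myod1 (genes of glia, leukocytes and myoblasts) and at least 1 UMI of Hoxc9. The rule found 940 members among 5911 brown cells that met all the other limits, of 7009 brown cells and 12270 cells of both depots in the deposited data. The study compared stromal vascular cells of the subcutaneous white and the interscapular brown depot of male and female C57/BL6J neonates, labelled P0 here and P1 in the methods of the study. The cells of several pups were pooled, plated and grown to confluency before single-cell sequencing with 10x Genomics 3′ v3.1 chemistry. The white library served here as the reference, with 4323 cells within the same limits. There was 1 library per depot, so no comparison had a replicate check and none was tested: every interval is a 95% interval for counting error only, exact Poisson for a level, Clopper-Pearson for a share and conditional binomial for a ratio of 2 sums.

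Hox genes lie in 4 clusters and encode homeodomain transcription factors that give cells a position along the body axis. Within a cluster, the genes at one end (low paralog numbers) are used from the hindbrain and neck backwards, and those at the other end (high numbers) only toward the tail, so that the last gene switched on marks how posterior a cell's origin is. Cultured mesenchymal cells keep much of this code. Interscapular brown fat forms between the shoulders, where Zic1, a zinc finger factor, is a well known marker, whereas the subcutaneous depot extends toward the hind limb.

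The Hox genes that moved in opposite directions with Hoxc9 are shown first by their promoters, since 3 genes of paralog groups 7 and 8 behaved differently: Hoxa7 was higher in the members, Hoxd8 was lower and Hoxb8 did not differ beyond counting error (values below). The 250 bases before each start site are given 5′ to 3′ on the gene's strand, from RefSeq on GRCm38.p6, the same assembly as the mm10 build of the counts. Capitals mark TTTATNG, a form recognised by posterior Hox and Cdx factors, searched on both strands. Hoxa7 lies on the minus strand at chr6:52218574-52218823, Hoxd8 on the plus strand at chr2:74704365-74704614 and Hoxb8 on the plus strand at chr11:96281655-96281904. The Hoxa7 window lies inside the GENCODE span of the gene, chr6:52214491-52221854. It therefore precedes a RefSeq start downstream of the GENCODE 5′ end.
Hoxa7: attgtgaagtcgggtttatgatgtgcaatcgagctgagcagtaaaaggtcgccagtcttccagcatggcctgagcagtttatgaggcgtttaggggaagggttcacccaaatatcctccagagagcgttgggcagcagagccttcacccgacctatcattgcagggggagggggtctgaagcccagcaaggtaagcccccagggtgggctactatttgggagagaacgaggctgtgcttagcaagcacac
Hoxd8: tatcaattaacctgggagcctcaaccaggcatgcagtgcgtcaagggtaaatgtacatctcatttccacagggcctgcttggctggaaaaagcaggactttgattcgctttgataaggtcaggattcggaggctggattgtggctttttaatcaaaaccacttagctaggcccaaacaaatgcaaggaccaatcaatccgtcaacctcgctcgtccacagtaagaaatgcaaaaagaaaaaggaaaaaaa
Hoxb8: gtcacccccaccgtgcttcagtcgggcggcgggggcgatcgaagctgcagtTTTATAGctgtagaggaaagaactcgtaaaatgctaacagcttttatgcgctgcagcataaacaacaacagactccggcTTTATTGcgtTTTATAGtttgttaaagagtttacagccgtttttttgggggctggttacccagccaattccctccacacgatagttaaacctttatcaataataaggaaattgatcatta
The Hoxb8 window held 3 matches, which began 199, 120 and 110 bases before the start site, and the other two windows held none. Of 32817 promoter windows of the same length 9.81% held this motif, as did 2 of 24 windows of Hox genes. RefSeq entries were matched by symbol for 22 of the 39 Hox genes. A match describes letters only.

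Most members carried a single Hoxc9 molecule. Of the 940 cells, 701 had 1 UMI, 162 had 2 and 77 had 3 or more, with a maximum of 10. The share of brown precursor cells with a Hoxc9 UMI was 15.9% (95% interval 15.0 to 16.9), against 67.3% (65.8 to 68.7) of white cells. Because the share depends on depth, cells were also thinned to 10000 UMIs, with 1 white cell too shallow: 7.11% of brown cells (6.46 to 7.79) and 36.7% of white cells (35.3 to 38.2) then had a Hoxc9 UMI. Across 4 equal groups of brown cells ordered by depth, the share went from 12.3% at a median of 19195 UMIs to 22.2% at a median of 39991 UMIs. The summed level stayed between 7.15 and 8.11 CPM (UMIs per 1e+06 UMIs), so a cell with 0 UMIs was not shown to lack the transcript, and the comparisons below mix undetected expressers into the Hoxc9-zero side.

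Cells of other types gave a background level of Hoxc9, in which free RNA, doublets and expression of their own were not separated. Among 77 brown myeloid cells (Ptprc with at least 3 myeloid markers and 10 UMIs of them; median 26193 UMIs) 2 had a Hoxc9 UMI, 2.60% (0.316 to 9.07), or 0.951 CPM (0.115 to 3.44). Glial cells of the brown library showed it in 1 of 70 cells (1.43%, 0.0362 to 7.70) at a median of 19585 UMIs, or 0.628 CPM (0.0159 to 3.502). Brown precursor cells, with a median of 26362 UMIs, had 7.67 CPM (7.25 to 8.10), above both CPM intervals. Myogenic cells had 1.96 CPM (0.237 to 7.07), from 2 of 34 cells. In 152 brown barcodes under the UMI minimum, with a median of 1232 UMIs, Hoxc9 was at 7.60 CPM (0.921 to 27.5), again from 2 UMIs. Hoxc8 was at 7.61 CPM in the myeloid cells and 41.1 CPM in the precursor cells. How many members with a single Hoxc9 UMI owe it to free RNA was not tested.

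To compare cells of equal depth, each member was matched without replacement to the 3 Hoxc9-zero brown cells nearest in UMIs. The 2820 matched cells had a median of 28781 UMIs and 5948 detected genes, and the members 28788 UMIs and 5981.5 genes. Mitochondrial shares were 2.96% and 2.97%. Precursor markers were detected in both groups. Pdgfra, a receptor of fibroblast lineage cells, was detected in 80.1% of members (77.4 to 82.6) and 80.8% of matched cells (79.3 to 82.3), Pdgfrb in 93.6% and 93.5%, and the preadipocyte gene Dlk1 in 91.9% and 86.2%. After thinning to 10000 UMIs, Dlk1 was detected in 74.3% (71.3 to 77.0) of members and 69.1% (67.3 to 70.8) of matched cells. Of 11 precursor markers at 10 CPM 3 had ratios above 0, against 54.1% of all genes, with a median of -0.07 and none past 1.5-fold. Among these markers, the stem cell antigen gene Ly6a was at 30.1 against 37.2 CPM (-0.31, -0.42 to -0.20). The proteoglycan gene Dcn was at 381.4 against 433.1 CPM (-0.18, -0.21 to -0.15). Of 8875 genes with at least 10 CPM in either sum, 31 differed by 1.5-fold or more (0.349%), of which 6 were higher in the members (0.0676%) and 25 lower (0.282%). These shares are the background for every count past 1.5-fold below. Under the alternatives given at the end, the first ranged from 0.0858 to 2.09%. The 6 higher genes were Hoxc8, Hoxa7, Hoxc6, Hoxc5, Kcnq3 and C77080, the last 2 named after their values were seen. The median log2 ratio over all 8875 genes was 0.01, and 54.1% had ratios above 0, the background for every count of ratios above 0.

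The members differed from the matched cells in their HoxC code. Hoxc8, the neighbour of Hoxc9 on chromosome 15 and a gene of thoracic identity, stood at 88.1 CPM (2545 UMIs) in the members and 30.6 CPM (2640 UMIs) in the matched cells, a log2 ratio of 1.53 (1.45 to 1.60). It was found in 73.5% of members and 32.6% of matched cells, and after thinning in 49.7% (46.4 to 52.9) and 20.0% (18.5 to 21.5). The white Hoxc9-positive cells had 62.8 CPM of Hoxc8, less than the members. The ratio then stepped down with distance from Hoxc9: Hoxc6 was at 56.4 against 32.2 CPM (log2 ratio 0.81, 0.72 to 0.90), Hoxc5 at 13.5 against 8.70 CPM (0.64, 0.46 to 0.82) and Hoxc4 at 26.6 against 19.5 CPM (0.45, 0.32 to 0.57). The intervals of Hoxc8, Hoxc6 and Hoxc4 did not overlap each other, while that of Hoxc5 overlapped both of its neighbours. By annotation Hoxc9 spans chr15:102976439-102985099, Hoxc8 chr15:102990607-102994111 and Hoxc6 chr15:102998257-103011881, all on the plus strand of GRCm38. The annotated span of Hoxc5 also covers Hoxc10, Hoxc9, Hoxc8 and Hoxc6, so that its own count is uncertain. Summed over the 8 HoxC genes other than Hoxc9, the members had 185.0 CPM and the matched cells 91.2 CPM, a log2 ratio of 1.02 (0.97 to 1.07).

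**Figure D1:**
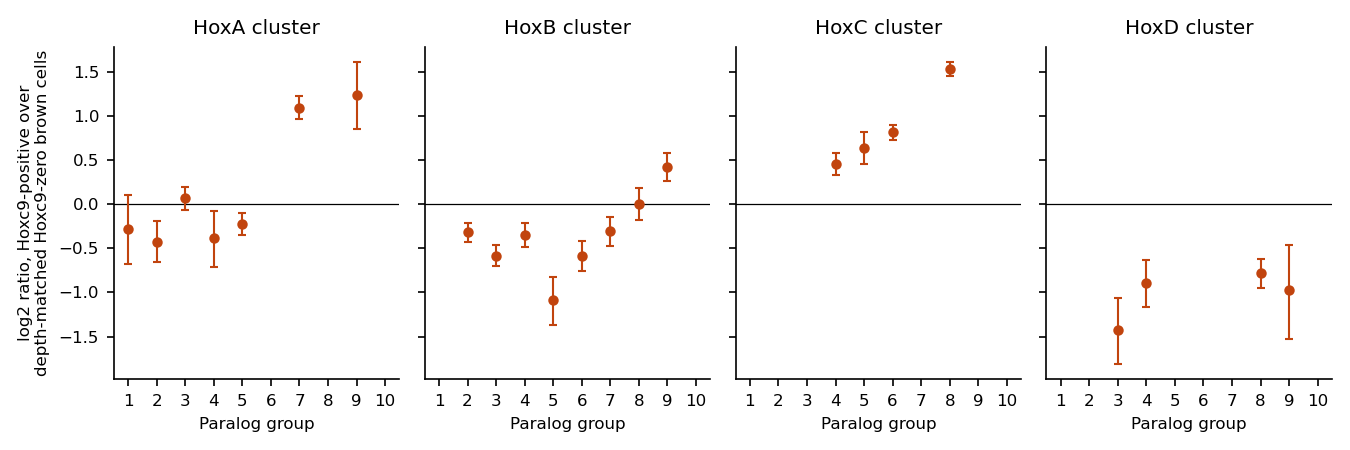
Log2 ratio of summed UMIs in Hoxc9-positive over depth-matched Hoxc9-zero brown cells (y axis) for each Hox gene with at least 1 CPM in either sum, by paralog group (x axis) in the 4 clusters; bars are 95% intervals for counting error and Hoxc9 itself is left out. HoxC genes run from 0.45 at Hoxc4 to 1.53 at Hoxc8, Hoxa7 and Hoxa9 lie above 1, most HoxB genes and the 4 HoxD genes plotted lie below 0.

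The next cluster gene on the 5′ side was almost absent. Hoxc10, which lies on the far side of Hoxc9 and marks the lumbar and hind limb region, had 4 UMIs in all 940 members (0.138 CPM, 0.0377 to 0.355), 5 UMIs in the matched cells (0.0580 CPM) and 97.3 CPM in the white Hoxc9-positive cells. In white cells Hoxc10 was detected in 86.3% of the Hoxc9-positive cells, and in members in 0.426%. Beyond it Hoxc13 had 5 UMIs in the members, with Hoxc11, Hoxc12 and Hotair, the antisense RNA between them, at 0 UMIs. For a count of 0 in the members, a limit of 3 UMIs corresponds to 0.104 CPM.

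The HoxA cluster showed a similar step. Hoxa7 was at 28.1 against 13.2 CPM, a log2 ratio of 1.09 (0.96 to 1.22), and Hoxa9 at 3.67 against 1.57 CPM (1.23, 0.85 to 1.61). Hoxa7 stood higher in the members than in the white Hoxc9-positive cells, at 11.8 CPM, whereas Hoxa9 was far below their 23.5 CPM. The more anterior Hoxa5, a gene of the neck and forelimb level, was lower in the members, at 22.8 against 26.6 CPM (-0.22, -0.35 to -0.10), and Hoxa2 was at 6.61 against 8.87 CPM (-0.42, -0.66 to -0.19). Hoxa10 had 0 UMIs in both brown groups and 19.1 CPM in the white Hoxc9-positive cells. The other HoxA genes ranged from -0.39 for Hoxa4 to 0.87 for Hoxa6, the latter from 22 UMIs.

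HoxB and HoxD genes were mostly lower in the members. Hoxb5os, a non-coding RNA antisense to Hoxb5 and Hoxb6, had the lowest ratio of all genes ranked, at 5.19 CPM (150 UMIs) against 21.1 CPM (1824 UMIs), -2.03 (-2.28 to -1.78). Hoxb5 itself was at 4.50 against 9.58 CPM (-1.09, -1.37 to -0.82), Hoxb6 at 12.2 against 18.3 CPM (-0.59, -0.76 to -0.42) and Hoxb3 at 24.5 against 36.7 CPM (-0.58, -0.70 to -0.46). At the posterior end of this cluster the sign changed: Hoxb8 was at 11.4 against 11.3 CPM (0.01, -0.18 to 0.19) and Hoxb9 at 15.9 against 11.9 CPM (0.42, 0.26 to 0.58). Hoxb9 reached 52.8 CPM in the white Hoxc9-positive cells. In the HoxD cluster Hoxd3 was at 2.39 against 6.42 CPM (-1.43, -1.81 to -1.06), Hoxd4 at 4.67 against 8.68 CPM (-0.89, -1.17 to -0.63), Hoxd8 at 12.6 against 21.7 CPM (-0.78, -0.95 to -0.62) and Hoxd9 at 36 against 211 UMIs (-0.97, -1.53 to -0.46). Hoxd3 and Hoxd4 overlap on the same strand, and their reads may be split between them, whereas Hoxb5os overlaps Hoxb5 on the opposite strand. Summed, HoxB differed by -0.34 (-0.40 to -0.29), HoxD by -0.92 (-1.04 to -0.79) and HoxA by 0.18 (0.12 to 0.25).

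Sums over paralog groups hid these opposite changes. The 18 listed posterior genes (groups 8 to 13) other than Hoxc9 added up to 133.3 CPM in the members and 79.8 CPM in the matched cells, a log2 ratio of 0.74 (0.68 to 0.80), but Hoxc8 decided this value: without it the ratio was -0.12 (-0.21 to -0.03). Only 4 of the 18 reached 10 CPM, of which Hoxc8 was more than 1.5-fold higher and Hoxd8 more than 1.5-fold lower, and 8 had 0 UMIs in the members. Of 8 central genes (groups 5 to 7) 6 reached 10 CPM, of which Hoxa7, Hoxc6 and Hoxc5 were more than 1.5-fold higher and Hoxb6 lower, and of 12 anterior genes (groups 1 to 4) 5 reached it and none passed 1.5-fold, with a median of -0.32. Of 8 Hox cofactors at 10 CPM 2 had ratios above 0, against 54.1% of all genes, with a median of -0.04 and none past 1.5-fold. Among them Meis1, a homeodomain partner of Hox proteins, was at 68.8 against 81.7 CPM (-0.25, -0.32 to -0.18).

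Levels were also compared by the number of Hoxc9 molecules in a cell. In cells with 1, 2 and 3 or more Hoxc9 UMIs, Hoxc8 stood at 79.9, 99.9 and 130.3 CPM, with intervals that did not overlap, from 30.6 CPM in the matched cells. Hoxc6 went from 54.2 to 61.0 and 64.8 CPM in the same classes and Hoxc5 from 12.6 to 15.5 and 16.9 CPM, each with overlapping intervals. Hoxa7 showed no such order among the members, at 29.3, 20.9 and 33.1 CPM. Nor did Hoxc4, at 26.7, 27.2 and 24.5 CPM, or Hoxa9, at 3.43, 4.80 and 3.39 CPM. Hoxb3 was at 25.7, 22.6 and 19.2 CPM, with overlapping intervals. Members with 3 or more Hoxc9 UMIs were also deeper, with a median of 33385 UMIs against 27724 UMIs for those with 1, and depth alone was not matched among these classes.

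**Figure D2:**
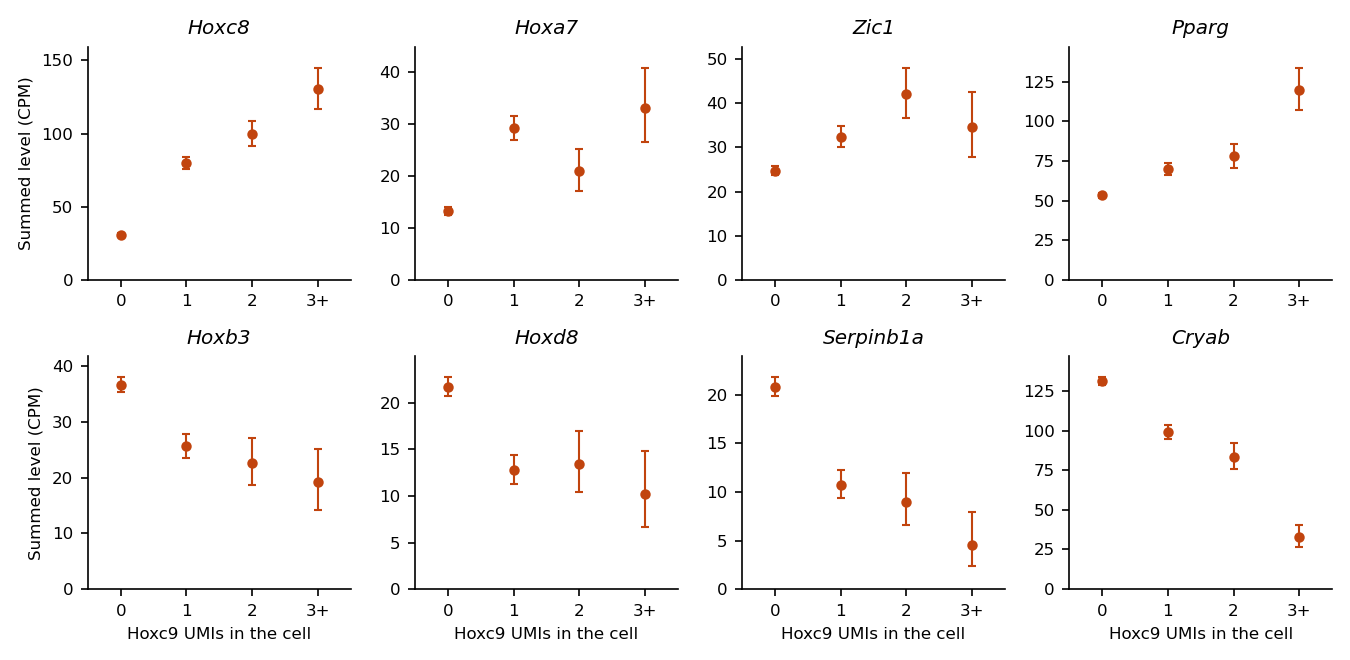
Summed level in CPM (y axis, from 0) of 8 genes in depth-matched brown cells with 0 Hoxc9 UMIs (2820 cells) and in members with 1 (701 cells), 2 (162 cells) and 3 or more (77 cells) Hoxc9 UMIs; bars are 95% Poisson intervals. Hoxc8 went from 30.6 to 130.3 CPM and Pparg from 53.5 to 119.7 CPM, whereas Cryab went from 131.0 to 32.8 CPM. In the class of 3 or more, a single cell held 39 of the 318 Pparg UMIs.

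In the white library the split by Hoxc9 looked different. White Hoxc9-positive cells were matched 1 to 1 in depth with the 1415 white Hoxc9-zero cells, and 0.983% of genes at 10 CPM differed by 1.5-fold. Hoxc8 then had a log2 ratio of 0.33 (0.24 to 0.42), Hoxc6 of 0.27 (0.18 to 0.36) and Hoxa7 of 0.25 (0.04 to 0.45). White cells without a Hoxc9 UMI still had 49.3 CPM of Hoxc8 and 75.8 CPM of Hoxc10. The difference between the depots in these ratios was not tested.

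Among regional genes other than Hox, Zic1, Zic4 and Lhx8 were higher in the members than in the matched brown cells. Zic1 was at 34.3 CPM (992 UMIs) in the members, 24.7 CPM (2128 UMIs) in the matched cells and 0.0117 CPM in the white Hoxc9-positive cells, which held a single UMI. The log2 ratio of members over matched cells was 0.48 (0.37 to 0.59). Zic4, its neighbour on chromosome 9, was at 8.86 against 5.74 CPM (0.63, 0.40 to 0.85). Lhx8, a LIM homeodomain factor enriched in brown fat, was at 35.8 against 25.1 CPM (0.51, 0.40 to 0.62), and 7.55 CPM in the white cells. En1, a marker of the dermomyotome, was at 48.1 against 42.5 CPM (0.18, 0.09 to 0.27). Of the white-high regional genes, Shox2, a limb and white fat homeobox gene, was at 23.2 against 31.5 CPM (-0.44, -0.56 to -0.32) and 72.5 CPM in white cells, Emx2 at 7.24 against 8.23 CPM (-0.19, -0.42 to 0.04) and 33.0 CPM in white cells, and Tbx15 at 119.0 against 123.6 CPM (-0.05, -0.11 to 0.00). Over the 58 listed patterning factors 18 reached 10 CPM, with 9 ratios above and 9 below 0, and only Meox2 passed 1.5-fold. Compared directly, 5.75% of genes at 10 CPM differed by 1.5-fold between members and white Hoxc9-positive cells, against 0.349% between members and matched brown cells, though the 2 libraries cannot be told apart from the depots.

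Transcripts of both codes were also counted cell by cell. Zic1 or Zic4 was detected in 540 of 940 members (57.4%, 54.2 to 60.6), in 1293 of 2820 matched cells (45.9%, 44.0 to 47.7) and in 2 of 2908 white Hoxc9-positive cells. At equal depth, after thinning, Zic1 was found in 254 of 940 members (24.2 to 30.0%) and 542 of 2820 matched cells (17.8 to 20.7%). Hoxc8 together with Zic1 or Zic4 was seen in 442 members (47.0%, 43.8 to 50.3) and in 538 matched cells (19.1%, 17.6 to 20.6). In brown myeloid cells, with a median of 26193 UMIs, Zic1 or Zic4 was found in 10 of 77 cells (6.41 to 22.6%) and together with Hoxc8 in 5 (6.49%, 2.14 to 14.5), and in glial cells, with a median of 19585 UMIs, in 2 of 70 (0.348 to 9.94%) and together with Hoxc8 in 1. Myogenic cells, with a median of 27282 UMIs, had Zic1 or Zic4 in 7 of 34 (20.6%, 8.70 to 37.9). The part of free RNA and of doublets in the shares of the members was not tested. At least 1 UMI of Hoxc10, Hoxa10, Hoxc11, Hotair or Pitx1, 5 genes chosen after their values were seen because brown cells had almost none, was found in 90.9% of white Hoxc9-positive cells but in 4 members (0.426%, 0.116 to 1.09). That choice fixed a low share in any brown cells, 0.177% in the matched cells, and it is given as a description only. Of 9 barcodes that occur in both libraries, 1 belonged to a member.

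**Figure D3:**
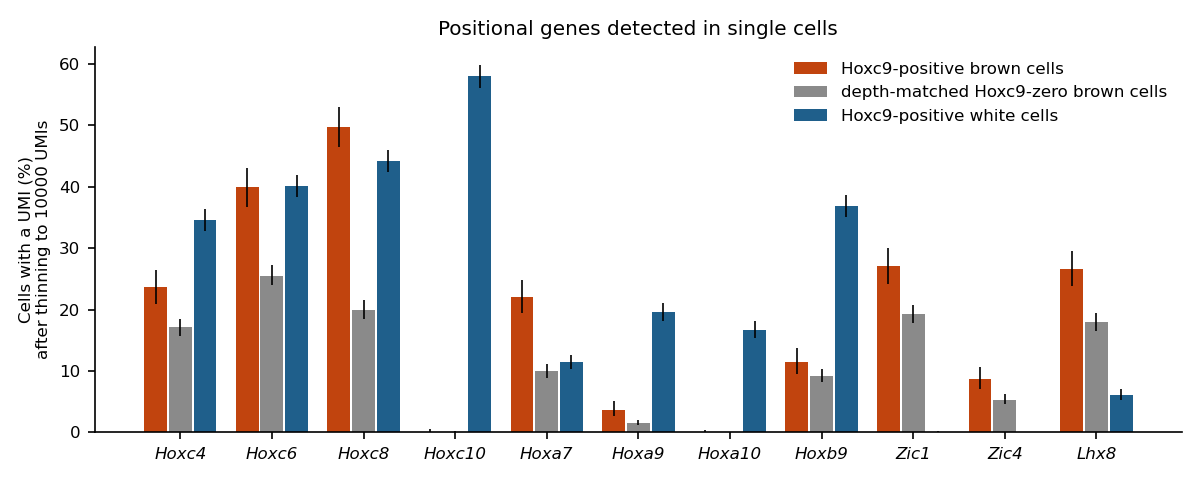
Percent of cells with at least 1 UMI (y axis, from 0) of 11 positional genes (x axis) in members, depth-matched Hoxc9-zero brown cells and white Hoxc9-positive cells, all thinned to 10000 UMIs; bars are 95% Clopper-Pearson intervals. Members reached 49.7% for Hoxc8, above the 20.0% of matched cells, and 0.106% for Hoxc10, which 57.9% of the white cells carried.

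A depot index of single cells, the percent of white-high UMIs among white-high and brown-high UMIs, was of little use. With Hox and sex genes left out, the limits of 50 CPM and 4-fold kept 1 white-high gene, the oxysterol hydroxylase Cyp7b1, and 4 brown-high genes, Cthrc1, Col8a1, Hp and Cp. Since most brown cells had no Cyp7b1 UMI, the median was 0 in the members and in the matched cells and could not show a difference, and it was 37.5 in white Hoxc9-positive cells. An index over 50 was found in 14 of 937 members (1.49%) and 16 of 2806 matched cells (0.570%). Relative to the matched cells, the 5 genes themselves lay toward the white side in the members. Cyp7b1 was at 30.1 against 23.8 CPM (log2 ratio 0.34, 0.22 to 0.45) and at 137.2 CPM in white cells, and the highest 9 members held 24.6% of its UMIs. In the Hoxc9-zero brown cells that were not matched, Cyp7b1 was at 31.0 CPM, no lower than in the members. Without the highest 1% of cells on each side its ratio was 0.18 (0.05 to 0.31). The 4 brown-high genes summed to 600.2 against 700.2 CPM. Among them the collagen Col8a1 was at 200.0 against 270.2 CPM (-0.43, -0.48 to -0.39), Hp at 55.9 against 65.2 CPM (-0.22, -0.30 to -0.14), Cp at 45.0 against 50.6 CPM (-0.17, -0.26 to -0.08) and Cthrc1 at 299.3 against 314.2 CPM (-0.07, -0.11 to -0.04).

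Cluster labels of the authors were at hand for 1983 of the brown precursor cells, from a shortened list, and placed members in all 7 brown clusters. These clusters were built on expression that could include Hoxc9, so the shares are a description. Hoxc9 was detected in 25.4% (19.1 to 32.7) of bAPC 3, 20.0% (13.7 to 27.6) of bAPC 4, 19.5% (16.4 to 23.0) of bAPC 1 and 16.1% (12.6 to 20.0) of bAPC 2 and in 7.96% (3.71 to 14.6) of bAPC 5, the clusters that the study names adipocyte precursor cells. It was found in 12.5% (8.99 to 16.9) of bCAPs, the committed precursors, and in 6.52% (3.91 to 10.1) of bFAPLs, the fibro-adipogenic progenitor-like cells. The intervals of bFAPLs lay below those of bAPC 1 to 4, and those of bAPC 1 to 4 overlapped each other. After thinning, the share in bFAPLs was 3.26% (1.50 to 6.10) and in bAPC 1 to 4 9.84% (7.54 to 12.6), 8.76% (6.21 to 11.9), 10.7% (6.44 to 16.3) and 9.29% (5.04 to 15.4), so that bAPC 4 then overlapped bFAPLs. With labels carried over to all cells bAPC 5 was lowest, at 4.85% (2.61 to 8.15), followed by bFAPLs at 7.70% (5.93 to 9.80). Median depths ranged from 23368 UMIs in bAPC 3 to 31156 UMIs in bAPC 4. Hoxc8, which the rule did not use, followed the same clusters, with 53.8 CPM in bAPC 1, 59.6 CPM in bAPC 3, 23.1 CPM in bFAPLs and 12.0 CPM in bAPC 5.

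**Figure D4:**
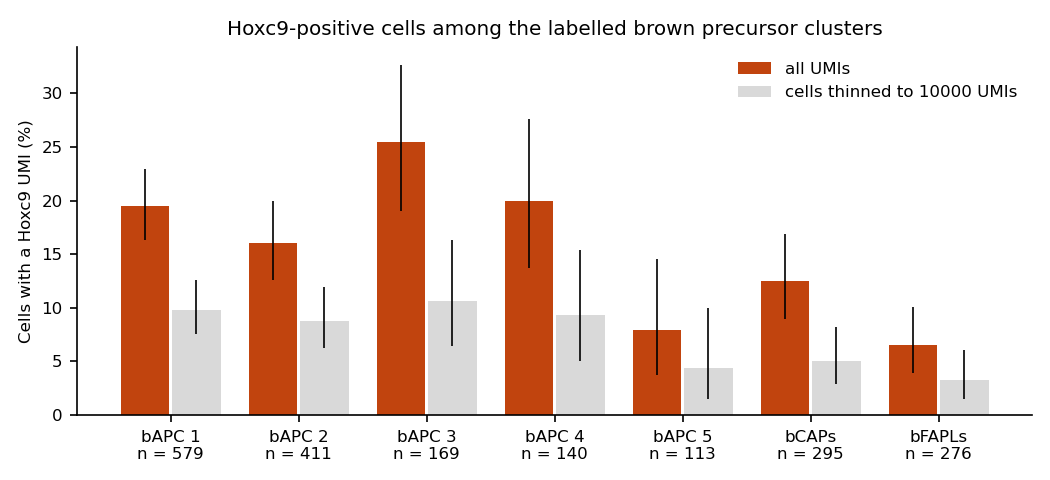
Percent of labelled brown precursor cells with at least 1 Hoxc9 UMI (y axis, from 0) in each of the 7 clusters of the authors (x axis, with the number of cells), with all UMIs and after thinning to 10000 UMIs; bars are 95% Clopper-Pearson intervals. With all UMIs bAPC 3 was highest at 25.4%, and bFAPLs at 6.52% and bAPC 5 at 7.96% were lowest, with overlapping intervals.

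Seen from the members, 18 of 314 labelled members were bFAPLs (5.73%, 3.43 to 8.91), against 146 of 985 labelled matched cells (14.8%, 12.7 to 17.2). The share of bAPC 1 was 36.0% (30.7 to 41.6) against 28.3% (25.5 to 31.3), and that of bAPC 3 13.7% (10.1 to 18.0) against 6.19% (4.77 to 7.88). The genes that the study names for FAPLs were lower in the members as a group: none of the 8 (of 9) at 10 CPM had a ratio above 0, against 54.1% of all genes, with a median of -0.47, and Serpinb1a and Meox2 passed 1.5-fold. The study picked these genes on these libraries. Serpinb1a, a protease inhibitor, was at 9.87 against 20.8 CPM (-1.08, -1.26 to -0.90), and Meox2, a mesenchymal homeobox gene, at 14.9 against 28.7 CPM (-0.95, -1.10 to -0.80). Cryab, a small heat shock protein, was at 90.2 against 131.0 CPM (-0.54, -0.60 to -0.48), and the basement membrane collagens Col4a1 and Col4a2 at 274.9 against 376.6 CPM and 148.7 against 209.3 CPM. By Hoxc9 molecules, Cryab stood at 99.0, 83.6 and 32.8 CPM in cells with 1, 2 and 3 or more.

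Matching within clusters made the ratios of the FAPL genes smaller. The clusters differ in these genes and the labels were carried over without Hox genes, so a smaller ratio of the first and not of the second is partly built in. When labels were carried over to all cells by nearest neighbours (without Hox genes) and each member was matched within its own cluster, Serpinb1a had a log2 ratio of -0.46 (-0.65 to -0.27), Meox2 of -0.53 (-0.69 to -0.38), Cryab of -0.21 (-0.27 to -0.15) and Col4a1 of -0.13 (-0.17 to -0.09). Hoxc8 had 1.39 (1.31 to 1.47), below its 1.53 with depth matching alone, Hoxa7 1.04 (0.91 to 1.17), Hoxb5os -2.03 (-2.28 to -1.79) and Hoxd8 -0.79 (-0.95 to -0.62). Zic1 had 0.44 (0.33 to 0.55). Within single clusters, without depth matching, Hoxc8 was higher in the members of all 7, from 0.92 (0.68 to 1.16) in bCAPs to 1.79 (1.48 to 2.09) in bFAPLs and 2.40 in bAPC 5, where it rested on 10 UMIs in 13 members. Serpinb1a was lower in the members of bAPC 1 (-0.95, -1.45 to -0.49), bCAPs (-0.70, -1.23 to -0.21) and bFAPLs (-0.79, -1.08 to -0.51), with intervals that included 0 in bAPC 2 to 5 and a ratio of 0.62 in bAPC 3. Meox2 was lower in the members of 5 clusters, with intervals that included 0 in bAPC 5 (-0.14, -0.75 to 0.40) and bFAPLs (-0.15, -0.39 to 0.09). Zic1 was higher in bAPC 1 to 5 and not in bCAPs (-0.26, -0.60 to 0.05) or bFAPLs (0.24, -0.25 to 0.69). Hoxb5os was lower in the members of every cluster, although in bAPC 5 the interval included 0 (-0.57, -1.50 to 0.22).

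Adipogenic regulators had ratios on both sides of 0. Pparg, the master regulator of adipogenesis, was at 75.9 CPM (2191 UMIs) against 53.5 CPM (4611 UMIs), a log2 ratio of 0.50 (0.43 to 0.58), and 52.8 CPM in white Hoxc9-positive cells. It was detected in 60.7% (57.5 to 63.9) of members and 54.2% (52.3 to 56.0) of matched cells, and after thinning in 35.5% (32.5 to 38.7) and 31.9% (30.2 to 33.6). The highest 9 members held 14.9% of its UMIs, and without the highest 1% of cells on each side the ratio was 0.44 (0.36 to 0.52). By cluster the ratio was 0.70 (0.60 to 0.81) in bAPC 1, 0.28 (0.11 to 0.44) in bCAPs, 0.20 (-0.01 to 0.42) in bAPC 3, 0.11 (-0.05 to 0.27) in bAPC 2, 0.65 (-0.71 to 1.76) in bAPC 5, -0.09 (-0.39 to 0.19) in bAPC 4 and -0.10 (-0.67 to 0.42) in bFAPLs. Differences between clusters were not tested. Over 21 adipogenic regulators at 10 CPM the median was 0.03, with 11 ratios above and 10 below 0. Intervals lay above 0 for 6 of them and below 0 for 7, against 12.3% and 11.3% of all genes. None of the 21 passed 1.5-fold. Zfp423, a regulator of preadipocyte commitment, was at 48.2 against 41.2 CPM (0.22, 0.13 to 0.31), Cebpd at 123.4 against 141.0 CPM (-0.19, -0.25 to -0.14) and Nfib at 412.5 against 467.9 CPM (-0.18, -0.21 to -0.15).

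Lipid genes leaned slightly higher in the members. All 11 adipocyte lipid genes at 10 CPM had ratios above 0, against 54.1% of all genes, with a median of 0.05, and none passed 1.5-fold. Intervals lay above 0 for 5 of them, against 12.3% of all genes. The sum over the list had a log2 ratio of 0.11 (0.10 to 0.13). Lipoprotein lipase, Lpl, was at 425.0 against 356.5 CPM (0.25, 0.22 to 0.28) and the desaturase Scd1 at 78.3 against 63.5 CPM (0.30, 0.23 to 0.37). Fabp4, the adipocyte fatty acid carrier, was at 141.8 against 135.2 CPM (0.07, 0.02 to 0.12), and at 0.00 (-0.05 to 0.06) without the highest 1% of cells. A single member of 52831 UMIs held 28 of the 37 Adipoq UMIs, 36 of the 73 Cd36 UMIs and 239 Fabp4 UMIs, together with 3 Hoxc9, 8 Hoxc8 and 1 Zic1 UMIs. Thermogenic genes were mostly low in both groups. The 20 listed genes summed to 62.4 against 58.7 CPM (0.09, 0.01 to 0.16). Ucp1, the uncoupling protein of brown fat, Cidea and Dio2 were among 6 genes with 0 UMIs in the members. Of the list, Esrrg alone reached 10 CPM, at 26.9 against 22.4 CPM (0.27, 0.15 to 0.39). Ebf2, an early brown precursor factor, was at 162.5 against 165.7 CPM (-0.03, -0.08 to 0.02).

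**Figure D5:**
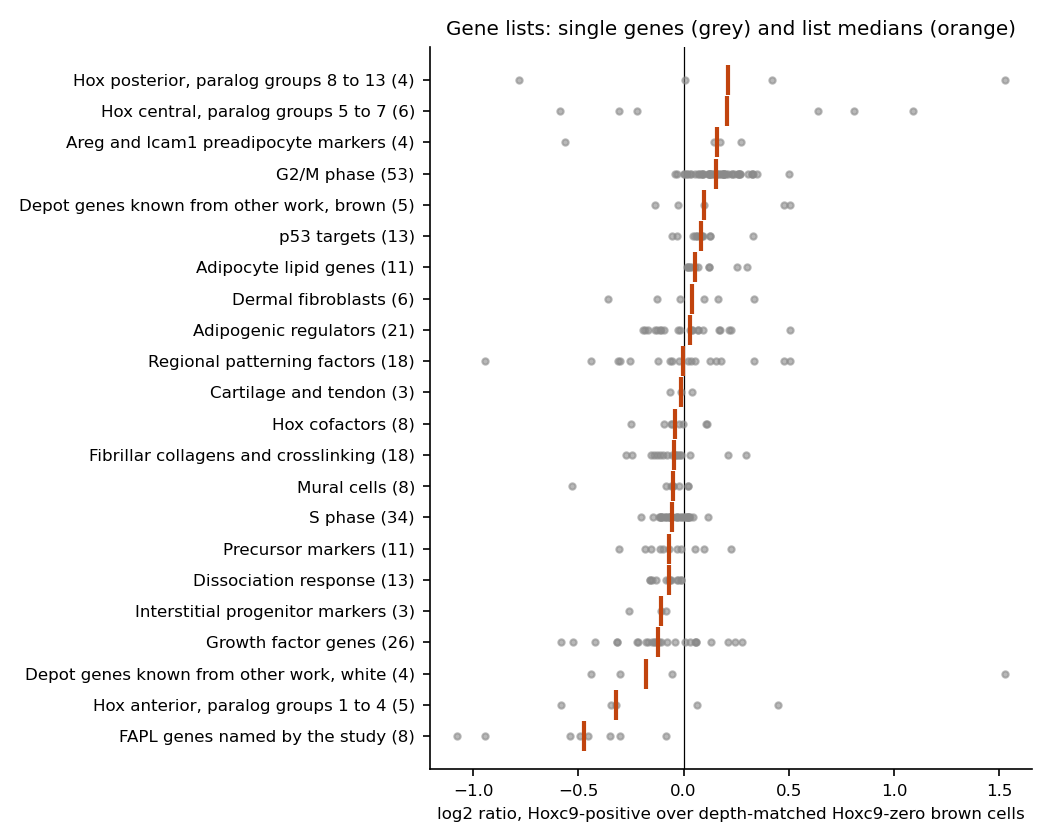
Log2 ratio of members over depth-matched Hoxc9-zero brown cells (x axis) for the genes at 10 CPM of each list with at least 3 such genes (y axis, number in brackets); grey points are genes and orange bars list medians. The median is lowest for the FAPL genes (-0.47), and the Hox lists spread widest, up to 1.53 for Hoxc8.

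Several genes that ranked first were neither Hox nor regional genes. Among the 10 highest by the interval bound nearest 0, next to Hoxc8, Hoxa7, Hoxc6, Hoxc4, Zic1, Lhx8 and Pparg, were the secreted phosphoprotein Spp1 (105.9 against 72.9 CPM; 0.54, 0.48 to 0.60), the transcription factor Maf (68.1 against 50.3 CPM; 0.44, 0.36 to 0.51) and the leucine-rich repeat protein Lrrc15 (22.0 against 16.0 CPM; 0.46, 0.32 to 0.60). Of the UMIs of Spp1 the highest 9 members held 18.8%. The 10 lowest were Hoxb5os, Serpinb1a, Meox2, the phosphodiesterase Pde3a (40.7 against 68.5 CPM; -0.75, -0.84 to -0.66), the LIM protein Fhl1, Hoxd8, the nuclear factor Tox, the stretch-response gene Ankrd1, the matrix Gla protein Mgp (165.4 against 244.2 CPM; -0.56, -0.61 to -0.52) and Ccn5. Of 26 growth factor genes 9 had ratios above 0, against 54.1% of all 8875 genes, with a median of -0.12 and none past 1.5-fold, among them Igfbp3 (81.6 against 109.1 CPM; -0.42, -0.48 to -0.35), Igfbp5 and Bmp4 (-0.58, -0.79 to -0.38). Of 18 fibrillar collagen and crosslinking genes at 10 CPM 3 had ratios above 0, against 54.1% of all genes, with a median of -0.05. Intervals lay below 0 for 9 of them, against 11.3% of all genes. All 3 interstitial progenitor markers at 10 CPM had ratios below 0, with a median of -0.11. No gene of these lists passed 1.5-fold.

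Cell cycle and sex were compared as well. Of 53 G2/M genes at 10 CPM 50 had ratios above 0, against 54.1% of all genes, with a median of 0.16, and Cenpf, a kinetochore protein, was at 99.5 against 78.0 CPM (0.35, 0.29 to 0.41). Of 34 S phase genes at 10 CPM 10 had ratios above 0, with a median of -0.05. By scored phase 23.7% (21.0 to 26.6) of members and 20.7% (19.2 to 22.3) of matched cells were in G2/M, and after thinning 24.9% (22.2 to 27.8) and 21.7% (20.2 to 23.3). The intervals of the shares overlapped. In cells in G1 alone the ratios were 0.66 for posterior Hox genes, 0.34 for Zic1 and 0.55 for Pparg. Among cells with only Y-linked or only Xist UMIs, 148 of 889 members (16.6%, 14.3 to 19.3) and 369 of 2695 matched cells (13.7%, 12.4 to 15.0) were male. Hoxc9 was found in 18.8% (16.1 to 21.7) of male and 15.2% (14.2 to 16.3) of female brown cells, again with overlapping intervals. Summed levels differed beyond counting error between members and matched cells. The 4 Y-linked genes were at 32.4 against 27.2 CPM (0.26, 0.15 to 0.37) and Xist at 380.4 against 403.1 CPM (-0.08, -0.11 to -0.05). Within each sex, without depth matching, Hoxc8 had a ratio of 1.37 (1.20 to 1.54) in male and 1.51 (1.43 to 1.59) in female cells. Hoxb5os had -4.00 (-5.64 to -2.77) in male and -1.90 (-2.16 to -1.64) in female cells, with intervals that did not overlap. The male ratio rested on a low level, 1.15 CPM in 148 male members against 18.4 CPM in 639 male Hoxc9-zero cells. These intervals cover counting error only. Because the cells of several pups were pooled, sex cannot be told apart from animal. The part of cell cycle and sex in the other results was not tested.

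Markers of myeloid, glial, myogenic, endothelial and mesothelial cells were low in both groups. The summed level of 16 myeloid genes was 21.7 CPM in members and 21.0 CPM in matched cells, with Lyz2 the most abundant at 4.60 CPM and Itgam at 0 besides Ptprc, which the rule fixed at 0. For 13 glial genes it was 25.2 and 23.6 CPM (S100b first, at 15.9 CPM), for 14 myogenic genes 15.0 and 15.1 CPM (Tnnt2 first, at 3.84 CPM, with Myf5 and Pax7 at 0), for 13 endothelial genes 56.3 and 61.8 CPM (Flt1 first, at 33.9 CPM, with Cldn5 at 0), and for 11 mesothelial genes 6.79 and 7.15 CPM (Krt19 first, with 8 genes at 0). The sum of the endothelial genes was lower in the members (log2 ratio -0.14, -0.22 to -0.06). Genes that cultured precursors also express were abundant. Mural genes summed to 6995 and 7244 CPM (-0.05, -0.06 to -0.04), led by Acta2, and 12 dermal fibroblast genes to 710.3 and 666.5 CPM (0.09, 0.07 to 0.11), led by Dlk1, which made up most of the sum. Of the 6 dermal genes at 10 CPM 3 had ratios above 0, among them Twist2 at 83.3 against 66.0 CPM (0.34, 0.27 to 0.41), and 3 below, among them Trps1 at 31.4 against 40.2 CPM (-0.36, -0.46 to -0.25). Cartilage and tendon genes had a median of -0.01 over 3 genes. None of 13 dissociation response genes had a ratio above 0, with a median of -0.07, and 11 of 13 p53 targets did, with a median of 0.08, against 54.1% of all genes, none past 1.5-fold in either list. Scrublet marked 0 of 7009 brown cells and so had not worked, and doublets were not removed.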

How the data were processed

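The deposited matrices of the 2 libraries hold UMI counts per gene and cell that the authors made with Cell Ranger 7.0.1 on the mm10 mouse reference (per the labels and methods), without further normalization. Detected genes were counted over genes found in at least 3 cells of the library. Depth was 205551320 UMIs in 7009 brown cells (median 26411) and 144451047 UMIs in 5261 white cells (median 26239). Sums of counts over cells were scaled to CPM. PCR duplicates are removed by the UMIs, and intervals cover counting error only, not variation between animals or cultures. Cluster labels came from the published source data of the study, held here only in part, for 1999 brown cells and, for the rest, from the 15 nearest neighbours in 10 principal components of 2000 variable genes other than Hox genes, after regression of cell cycle scores (scanpy 1.11.5, scikit-learn 1.9.0), which recovered 84.5% of held-out labels. Thinning drew 10000 UMIs per cell without replacement. Ratios, matching and intervals (numpy 2.4.6, scipy 1.17.1) were tested on simulated data. Gene positions are GENCODE's on GRCm38. Named were every Hox gene, up to 4 genes per list and the most abundant of it, the 10 highest and 10 lowest genes at 20 CPM by the bound nearest 0, the depot index genes and the FAPL genes of the study. The members and the gene lists were chosen with earlier results of these data known. Some genes of the lists are not reported here.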

Additional observations from a re-analysis of the deposited data

Results flagged for a closer look

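Outside the limits of the rule, 412 brown cells over the gene or UMI maximum also carried Hoxc9, at 6.96 CPM (5.98 to 8.05), with a UMI in 124 of them (30.1%, 25.7 to 34.8) at a median of 62026.5 UMIs. These cells took no part in the comparisons above.

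Serpinb1a and Meox2 were flagged because the split by Hoxc9 pointed in opposite directions in the 2 depots. Other genes did so by less, among them Apoe (0.14 in brown, -0.10 in white) and Bax (0.05 and -0.11). Serpinb1a had a log2 ratio of Hoxc9-positive over depth-matched Hoxc9-zero cells of -1.08 in brown and 0.90 in white cells, and Meox2 of -0.95 in brown and 0.32 in white cells. With 1 library per depot the difference was not tested.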

How the results depend on the processing

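Each result was recomputed under up to 13 alternatives. The share of bFAPLs among labelled members (4.49 to 8.77%) stayed within the interval of the reported value. Several alternatives, such as those on the choice of matched cells, leave the labelled members unchanged and could not move this share. The median of the depot index is fixed at 0 in brown cells by its single white-high gene and says nothing about stability, and depot genes at 8-fold gave no value because no gene passed. Ratios of Pparg and Zic1 were above 0 in all 12 alternatives, though the interval of Zic1 included 0 in male cells. Requiring at least 2 Hoxc9 UMIs gave a share of positive cells of 4.04%, ratios of 0.93 for posterior Hox genes, 0.59 for Zic1 and 0.71 for Pparg, and 1.697% of genes past 1.5-fold. Matching within cluster labels gave 0.66 for posterior Hox genes, 0.38 for Pparg and 0.102% of genes. Cells in G1 gave 0.66 for posterior Hox genes and 0.34 for Zic1. Thinning gave a share of 7.11% and 0.41 for Pparg. Genes with at least 50 CPM gave 0.0858%. Chosen after seeing the data, the sum without Hoxc8 reversed to -0.12, and male cells alone (148 members) gave 0.83 for posterior Hox genes, 0.25 for Zic1 (-0.02 to 0.52), 0.39 for Pparg and 2.09% of genes. The causes were not tested. No paired analysis was possible because each depot had 1 library. A single Hoxc9 UMI per cell limits the split: undetected expressers remain on the zero side.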
